A study of Mus musculus with 7 samples.

Results

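The Ugt1a locus of mouse chromosome 1 encodes a family of UDP-glucuronosyltransferases that share most of their coding exons. Its 8 members (Ugt1a1, Ugt1a2, Ugt1a5, Ugt1a6a, Ugt1a6b, Ugt1a7c, Ugt1a9 and Ugt1a10) were taken by gene symbol from a table of 42256 genes. They were chosen with earlier results of these data known. RNA was sequenced from whole kidneys of 7 adult male mice of mixed 129S1/Sv x C57BL/6 background. The mice labelled CDH11+/+ (n = 3, wild-type-labelled) and CDH11-/- (n = 4, knockout-labelled) differ in the label for cadherin-11, a cell adhesion protein of mesenchymal cells. All 7 had 1 kidney removed and received angiotensin II at 800 ng/kg/min from an osmotic pump, and kidneys were collected 4 weeks after surgery. No kidney without nephrectomy and angiotensin was analysed here, so every difference below is between 2 injured groups, and no source used here describes the Cdh11 allele. The comparison asks how the kidney transcriptome differed between the genotype labels under this hypertensive injury.

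UDP-glucuronosyltransferases sit in the membrane of the endoplasmic reticulum and join glucuronic acid, taken from UDP-glucuronate, to bilirubin, steroids, phenols and drugs. The conjugates are water-soluble and leave the cell through transporters. Each Ugt1a enzyme has its own first exon, with its own promoter, which encodes the part that binds the substrate. That exon is spliced to a common set of exons encoding the part that binds UDP-glucuronate. Proximal tubule cells of the kidney express several of these enzymes, and the aryl hydrocarbon receptor (AhR), NRF2, PPARα, PXR, CAR and HNF1 are known regulators of the locus.

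Libraries held 72087906 to 84786351 estimated counts, and 17964 genes passed the filter on low counts, among them all 8 members. Cdh11 itself, the check of the labels, stood at 6.79, 4.52 and 10.77 CPM (counts per 1000000 counts of the scaled library) in the wild-type-labelled libraries and at 11.26, 9.56, 11.64 and 10.98 CPM in the knockout-labelled ones. It was thus not lower under the knockout label (log2 difference 0.56, SE 0.255, adjusted p = 0.1398 by edgeR's quasi-likelihood test with Benjamini-Hochberg adjustment), and it was higher there without wild-type-labelled replicate 3 (0.93, adjusted p = 0.0043). The position of any deletion is not given here, so counts per gene may not check it, and the groups are named by label throughout. Wild-type-labelled replicate 3 also stood apart in the summed level of 4 Y-linked genes, with 64.7 CPM against 110.83 to 144.93 CPM in the other 6 libraries. Values without this library are given beside the main results. Nothing in the labels says more of how the 7 samples relate, and the p-values measure the spread between these samples. The labels name the tissue as kidney. Summed proximal tubule markers ranged from 8871 to 10270 CPM in wild-type-labelled and from 12690 to 14360 CPM in knockout-labelled libraries. Summed hepatocyte markers ranged from 1073 to 1450 and from 1070 to 1395 CPM, most of it from Apob (304.05 to 734.25 CPM over the 7 libraries) and Cyp2e1 (475.11 to 1026.61 CPM), which kidney tubules also express. Alb did not exceed 7.41 CPM and Apoa1 0.15 CPM, while Ttr reached 57.56 CPM in knockout-labelled replicate 2. Of the intestinal list, Vil1, also a gene of the tubular brush border, measured 105.78 to 154.8 CPM and Cdx2 at most 0.06 CPM. Adrenal markers summed to at most 1.86 CPM, with Cyp11b2 at 0 counts in every library. The part of these cell types in the results was not tested.

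The splice junctions show what the members share and where they differ. In the GENCODE M21 annotation (GRCm38, the assembly also called mm10), the members lie on the plus strand within chr1:88055388-88220002, in the order Ugt1a10, Ugt1a9, Ugt1a7c, Ugt1a6b, Ugt1a6a, Ugt1a5, Ugt1a2 and Ugt1a1. Below are the last 30 bases of each first coding exon in lower case and the first 30 bases of exon 2 in capitals (from chr1:88215044), from the annotation's transcripts.
Ugt1a10: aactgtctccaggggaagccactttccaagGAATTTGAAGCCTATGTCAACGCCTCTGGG
Ugt1a9: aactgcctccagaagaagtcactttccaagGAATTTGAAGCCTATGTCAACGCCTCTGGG
Ugt1a7c: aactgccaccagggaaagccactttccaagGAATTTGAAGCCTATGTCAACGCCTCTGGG
Ugt1a6b: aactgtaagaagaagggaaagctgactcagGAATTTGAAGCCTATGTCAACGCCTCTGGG
Ugt1a6a: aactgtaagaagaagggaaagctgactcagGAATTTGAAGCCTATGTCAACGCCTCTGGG
Ugt1a5: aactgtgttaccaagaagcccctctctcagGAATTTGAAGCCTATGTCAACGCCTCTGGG
Ugt1a2: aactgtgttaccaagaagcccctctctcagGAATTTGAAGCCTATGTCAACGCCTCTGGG
Ugt1a1: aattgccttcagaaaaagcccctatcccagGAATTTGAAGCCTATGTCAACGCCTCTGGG
The capitals are the same in every line. The lower-case ends of Ugt1a2 and Ugt1a5 are identical, as are those of Ugt1a6a and Ugt1a6b, while Ugt1a9 and Ugt1a10 differ from each other.

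Exons 2, 3 and 4 have the same coordinates in every member (chr1:88215044-88215175, chr1:88215795-88215882 and chr1:88216138-88216357), and exon 5 starts at 88218127. Only reads over the first exon or its junction tell most members apart, and that exon makes up 40.1% to 42.1% of the transcript, or 28.3% in Ugt1a7c. Coding parts of first exons were 97.0% identical between Ugt1a6a and Ugt1a6b, 91.9% between Ugt1a9 and Ugt1a10 and 82.5% between Ugt1a2 and Ugt1a5. That of Ugt1a7c was 81.6% identical to Ugt1a9 and 81.3% to Ugt1a10. Ugt1a8, outside the 8, was 84.4% identical to Ugt1a7c, 83.6% to Ugt1a9 and 82.9% to Ugt1a10. Counts within the first 2 pairs are uncertain, since the quantification had to divide reads between near copies. For the less alike pairs, among them Ugt1a2 and Ugt1a5 with their identical exon ends, the division of reads was not tested. The row of Ugt1a7c holds a further ambiguity. Its transcripts alone run to position 88220002, which is 998 bases past the end of all others. Its transcript Ugt1a7c-202 begins with a noncoding exon of Ugt1a6b (chr1:88103252-88103378) and carries the coding exon of Ugt1a6a (chr1:88138473-88139331) in place of its own. Counts summed per gene do not show which transcript the reads came from, and the annotation release behind the deposited counts is unknown here. The sum over all 8 members does not depend on how shared reads were divided among them, apart from those given to Ugt1a8, which has the same shared exons and is not a member.

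**Figure D1:**
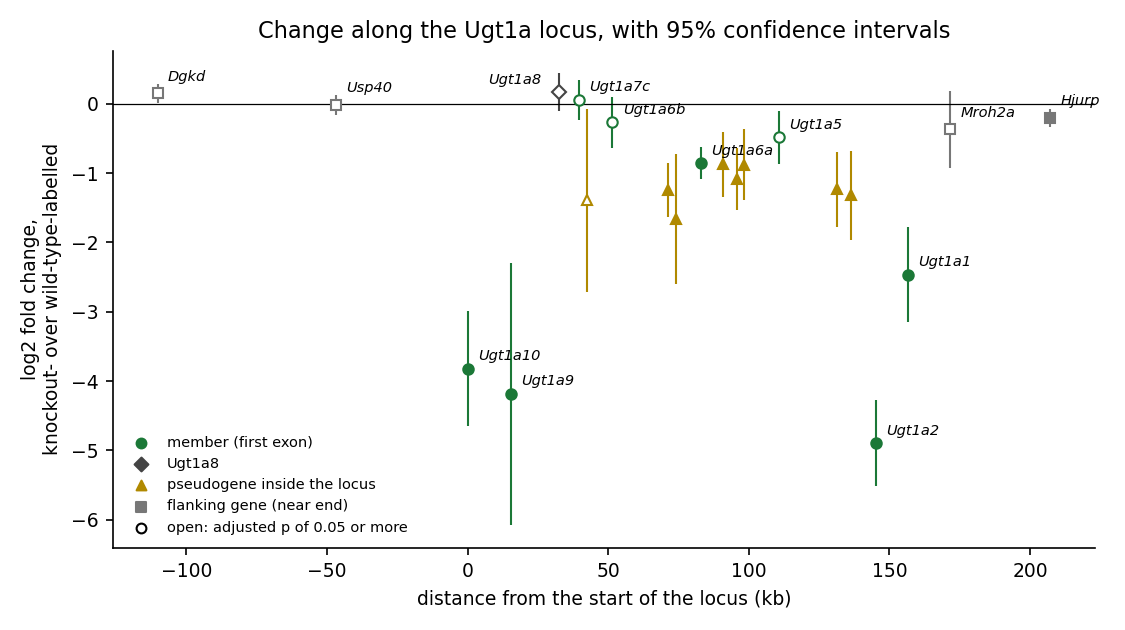
Change of the Ugt1a members, Ugt1a8, the pseudogenes inside the locus and the flanking genes Usp40, Dgkd, Mroh2a and Hjurp. The vertical axis is the log2 difference of knockout-labelled over wild-type-labelled kidneys. The horizontal axis is the distance in kb from the start of the locus, of the first exon of members and of the near end of flanking genes. Bars are 95% intervals and open symbols did not pass the test. Ugt1a2, Ugt1a10 and Ugt1a9 lie lowest, at -4.90, -3.82 and -4.18, while Ugt1a7c, which starts between Ugt1a9 and Ugt1a2, lies at 0.06.

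Of the 8 members, 5 were lower in knockout-labelled kidneys, 0 were higher and 3 did not pass the test in edgeR. At an unadjusted p under 0.05 the counts were 6 lower and 0 higher, and DESeq2 and limma-voom also called 6 lower and 0 higher. Over all tested genes, 12.9% were called lower, 16.8% higher and 29.7% in either direction. The 5 called members were also those whose groups did not overlap, which 16.6% of all tested genes were in the lower direction. The median log2 difference of the 8 members was -1.66, against -0.01 over all tested genes. Ugt1a9 is part of the 5 and of this median, although it passed the low-count filter only through the wild-type-labelled libraries. Its counts there were 227, 219 and 133, against 3, 0, 34 and 9 in knockout-labelled libraries. With no low-count filter, 5 members were again called lower and 0 higher. Ranked by the size of the fall among genes averaging 1 CPM or more, Ugt1a2 was 2, Ugt1a10 6, Ugt1a1 23 and Ugt1a6a 323. Ugt1a9, also among the 5 called, reached that average only through the wild-type-labelled libraries (group means 2.56 and 0.135 CPM). Its rank is therefore left out. In whole kidney, fewer cells of a type and less RNA per cell cannot be told apart.

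Ugt1a1, Ugt1a2 and Ugt1a5 have the first exons that lie nearest to the shared exons. Ugt1a1 (first exon chr1:88211959-88212871) is the enzyme that conjugates bilirubin. It measured 12.29, 26.33 and 16.29 CPM in wild-type-labelled kidneys and 4.54, 2.60, 3.46 and 2.66 CPM in knockout-labelled kidneys. The groups did not overlap, and the fall was 5.51-fold (log2 -2.46, SE 0.296, adjusted p = 0.0010). Ugt1a2 (first exon chr1:88200601-88201500) measured 121.24, 119.98 and 184.87 CPM against 6.43, 5.20, 3.45 and 4.00 CPM. All 4 knockout-labelled kidneys were far below every wild-type-labelled one, of which replicate 3 was the highest. The fall was 29.8-fold (log2 -4.90, 95% interval -5.51 to -4.28, adjusted p = 6.035e-05), and without that replicate the log2 difference was -4.67. Ugt1a5 (first exon chr1:88166012-88166903) measured 11.11, 14.13 and 9.74 CPM against 10.55, 8.37, 7.66 and 6.73 CPM. Its groups overlapped through knockout-labelled replicate 1, and its log2 difference of -0.49 (95% interval -0.87 to -0.10 before adjustment) did not pass the test (adjusted p = 0.0609). Leaving out wild-type-labelled replicate 3 brought Ugt1a5 past the threshold (-0.61, adjusted p = 0.0366). So did leaving out knockout-labelled replicate 1 (-0.62, adjusted p = 0.0174).

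Ugt1a6a and Ugt1a6b encode near copies of the form known for conjugating small planar phenols. Ugt1a6a (coding exon chr1:88138473-88139331) measured 46.76, 53.83 and 37.80 CPM in wild-type-labelled kidneys. The knockout-labelled kidneys lay close together, at 25.94, 25.36, 24.73 and 26.00 CPM, all below the lowest of the other group. Ugt1a6a fell 1.81-fold (log2 -0.85, SE 0.104, adjusted p = 0.00053). Ugt1a6b (coding exon chr1:88106941-88107799) measured 12.95, 16.75 and 12.71 CPM against 15.11, 11.02, 11.28 and 9.59 CPM. The groups overlapped and its log2 difference of -0.27 did not pass the test (adjusted p = 0.247), although it did without knockout-labelled replicate 1 (-0.41, adjusted p = 0.0421). The value of Ugt1a6a depends on how reads were assigned between its row and that of Ugt1a7c. With both counted as 1 row the log2 difference was -0.03 (adjusted p = 0.89), a sum that is mostly Ugt1a7c.

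Ugt1a7c, Ugt1a9 and Ugt1a10 belong to the cluster of related first exons farthest from the shared exons, whose enzymes act on phenols and many drugs. Ugt1a10 (first exon chr1:88055411-88056336) measured 91.24, 71.90 and 66.00 CPM in wild-type-labelled and 4.52, 2.71, 6.36 and 7.96 CPM in knockout-labelled kidneys. The groups were far apart, and the fall was 14.1-fold (log2 -3.82, SE 0.348, adjusted p = 0.00059). Ugt1a9 (first exon chr1:88070800-88071678) had few counts, 227, 219 and 133 in wild-type-labelled libraries and 3, 0, 34 and 9 in knockout-labelled ones. These correspond to 3.22, 2.93 and 1.54 CPM against 0.04, 0, 0.39 and 0.11 CPM, and the count of 0 allows a level of up to 0.0419 CPM. Ugt1a9 was lower under the knockout label (log2 -4.18, SE 0.812, adjusted p = 0.0077), with a 95% interval from -6.08 to -2.29. The difference was -5.62 without knockout-labelled replicate 3, which held most of that group's counts. Ugt1a7c (first exon of its main transcript chr1:88095064-88095978) was the most abundant member, at 298.77, 396.21 and 270.30 CPM against 306.17, 371.92, 340.51 and 323.85 CPM. Its groups overlapped fully. The log2 difference was 0.06 (adjusted p = 0.755), and its 95% interval of -0.23 to 0.35 holds no fall like those of Ugt1a9 and Ugt1a10. Ugt1a8, a protein-coding gene of the same cluster that is not among the 8, did not pass either (log2 0.17, adjusted p = 0.325).

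**Figure D2:**
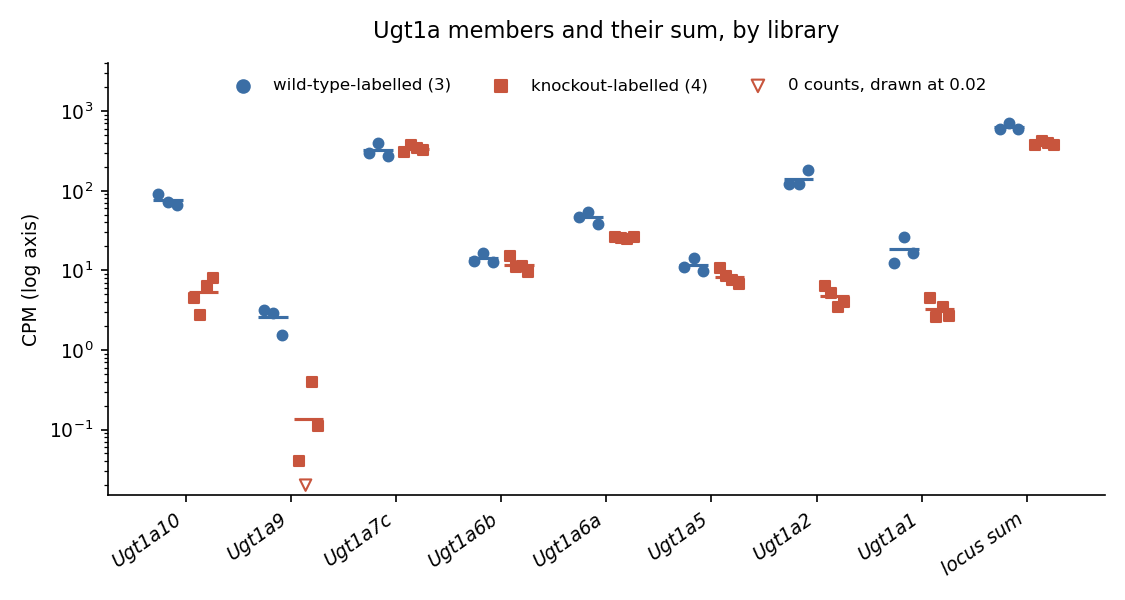
CPM of each member and of the locus sum in the 7 kidneys, on a log axis; each point is 1 library, bars mark group means and the open triangle marks a count of 0. The 2 groups are separate for Ugt1a1, Ugt1a2, Ugt1a6a, Ugt1a9, Ugt1a10 and the sum, and overlap for Ugt1a5, Ugt1a6b and Ugt1a7c.

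The summed locus fell far less than its most changed members. It measured 597.57, 702.04 and 599.25 CPM in wild-type-labelled kidneys (633.0 ± 59.8, SD, n = 3). In knockout-labelled kidneys it measured 373.28, 427.19, 397.83 and 380.89 CPM (394.8 ± 23.9, SD, n = 4). The groups did not overlap, and the sum fell 1.60-fold (log2 -0.68, SE 0.083, 95% interval -0.87 to -0.49, adjusted p = 0.00052). An exact 2-sided permutation test of the summed CPM gave p = 0.0571, the smallest that 3 against 4 libraries allow. In mean CPM the sum fell by 238.2, Ugt1a2 fell by 137.3 and Ugt1a10 fell by 70.99. Without Ugt1a7c the sum of the other 7 members fell 5.26-fold (log2 -2.39, adjusted p = 1.475e-06), and without Ugt1a7c and Ugt1a6a it fell 7.87-fold (log2 -2.98). With Ugt1a8 added, the log2 difference of the sum was -0.66. Leaving out wild-type-labelled replicate 3 gave log2 differences of -0.73 for the locus sum, -2.55 for Ugt1a1, -0.99 for Ugt1a6a, -4.45 for Ugt1a9 and -3.92 for Ugt1a10.

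The makeup of the locus was described by each member's share of the summed counts. Ugt1a7c supplied 50.5% ± 5.68 (SD, n = 3) of the locus counts in wild-type-labelled kidneys and 84.9% ± 2.12 (SD, n = 4) in knockout-labelled kidneys. Ugt1a2 supplied 20.3%, 17.1% and 30.9% in the former and 1.72%, 1.22%, 0.866% and 1.05% in the latter. Ugt1a10 went from 12.2% ± 2.71 to 1.38% ± 0.615, and Ugt1a1 from 2.84% ± 0.853 to 0.848% ± 0.268. Ugt1a6a supplied 7.27% ± 0.834 and 6.48% ± 0.485, with overlapping groups. The share of Ugt1a6b was 2.22% ± 0.141 and 2.99% ± 0.715, and it did not overlap between groups although its CPM did. For each of the 8 members, the log2 ratio to the other members was compared by an exact 2-sided permutation test. This exact test gave p = 0.0571 for 6 of 8, 0.1714 for Ugt1a6a and 0.4 for Ugt1a5, and 0.0571 is the smallest p it can give here.

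**Figure D3:**
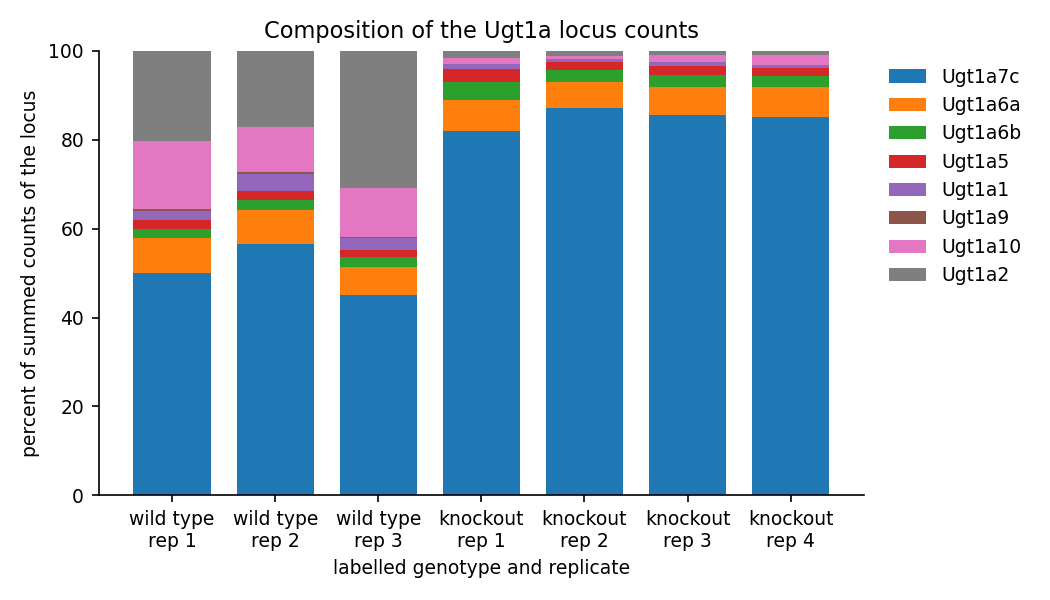
Share of the summed Ugt1a counts held by each member in each kidney, in percent, stacked to 100 percent. Ugt1a7c takes 45.1% to 56.4% in the 3 wild-type-labelled libraries and 82.0% to 87.1% in the 4 knockout-labelled ones, where the bands of Ugt1a2 and Ugt1a10 almost vanish.

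Levels were also set per kilobase of the main annotated transcript, so that members can be ordered. In wild-type-labelled kidneys the order in mean CPM per kb was Ugt1a7c (99.6), Ugt1a2 (64.2), Ugt1a10 (34.0), Ugt1a6a (20.4), Ugt1a1 (8.23), Ugt1a6b (6.29), Ugt1a5 (5.29) and Ugt1a9 (1.17). Neighbours in that order overlapped across libraries only between Ugt1a1 and Ugt1a6b and between Ugt1a6b and Ugt1a5. In knockout-labelled kidneys the order was Ugt1a7c (103.9), Ugt1a6a (11.3), Ugt1a6b (5.22), Ugt1a5 (3.78), Ugt1a10 (2.40), Ugt1a2 (2.16), Ugt1a1 (1.49) and Ugt1a9 (0.0618). There every neighbouring pair from Ugt1a6b to Ugt1a1 overlapped. Ugt1a2 thus stood next to Ugt1a7c in the first group and below Ugt1a5 in the second. The values of Ugt1a7c and Ugt1a6a carry the ambiguity of their rows described above.

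Other annotated genes within the locus were low. Of 8 unprocessed pseudogenes between the first exons, 7 were lower in knockout-labelled kidneys, by 1.83- to 3.16-fold, against the 12.9% of all genes. The largest fold, of Gm15370, rests on 10, 21 and 30 counts against 8, 6, 5 and 7. This gene passed the low-count filter only through the wild-type-labelled libraries. The next largest was 2.49-fold (Gm15376). Wild-type-labelled means of the 8 pseudogenes were at most 3.89 CPM. The highest, Gm15372 (chr1:88126776-88127609), measured 4.14, 4.39 and 3.13 CPM against 1.76, 1.91, 1.40 and 1.5 CPM (log2 -1.24, adjusted p = 0.00095). The eighth, Gm15373, had a log2 difference of -1.39 at a wild-type-labelled mean of 0.191 CPM and did not pass. Gm20528, annotated antisense across the locus, had -0.91 (adjusted p = 0.0528) and Dnajb3, a small gene on the opposite strand, 0.28, and neither passed. The strand setting of the deposited counts is not given, so reads of overlapping genes on the 2 strands may not have been told apart.

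Outside the locus, 3 of the 10 nearest tested protein-coding genes were called, against 29.7% of all genes. Of the nearest gene on either side, Usp40, a deubiquitinase gene 46.8 kb before the locus, had a log2 difference of -0.02 (adjusted p = 0.881), and Mroh2a, 6.98 kb after it, -0.37 (adjusted p = 0.286). The 3 called genes were lower. Hjurp, a chaperone of the centromeric histone 42.5 kb after the locus, differed by -0.20 (adjusted p = 0.0277, lost without any of 4 single libraries, wild-type-labelled replicates 1 and 3 and knockout-labelled replicates 3 and 4, where it was 0.0564 to 0.0763). Arl4c, a small GTPase 453.1 kb after the locus, differed by -0.79, and Sh3bp4, an endocytic adaptor 850.4 kb after it, by -0.69. Dgkd (0.15), Sag (0.41), Atg16l1 (-0.22), Inpp5d (-0.30) and Spp2 (0.78) did not pass, but Spp2 did without wild-type-labelled replicate 3 (1.26, adjusted p = 0.0012), as did Dgkd (0.20, adjusted p = 0.0377).

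The promoters are shown because each first exon has its own. RefSeq (GRCm38.p6) gave the 250 bases before the start for 7 of the 8 members, with Ugt1a6b not matched. The window of Ugt1a6a lies before the noncoding first exon of its transcript Ugt1a6a-202 (chr1:88134809-88134935). It does not adjoin the main transcript Ugt1a6a-201, which starts at 88138378. Those of the 5 members that fell and of Ugt1a7c, which did not pass, are given 5′ to 3′ on the plus strand, with each HNF1 half-site (GTTAAT, or ATTAAC on the other strand) in capitals. They span chr1:88055161-88055410 (Ugt1a10), chr1:88070529-88070778 (Ugt1a9), chr1:88211709-88211958 (Ugt1a1), chr1:88134559-88134808 (Ugt1a6a), chr1:88200361-88200610 (Ugt1a2) and chr1:88094751-88095000 (Ugt1a7c).
Ugt1a10: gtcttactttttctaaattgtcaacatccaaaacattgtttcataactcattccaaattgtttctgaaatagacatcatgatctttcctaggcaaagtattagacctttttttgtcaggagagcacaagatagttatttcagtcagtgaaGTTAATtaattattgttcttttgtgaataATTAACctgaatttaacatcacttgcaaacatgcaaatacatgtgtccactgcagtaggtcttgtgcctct
Ugt1a9: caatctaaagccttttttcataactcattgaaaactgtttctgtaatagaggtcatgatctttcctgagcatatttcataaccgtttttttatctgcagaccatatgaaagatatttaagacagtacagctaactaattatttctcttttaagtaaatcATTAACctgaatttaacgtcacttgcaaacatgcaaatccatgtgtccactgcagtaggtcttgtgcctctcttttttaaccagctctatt
Ugt1a1: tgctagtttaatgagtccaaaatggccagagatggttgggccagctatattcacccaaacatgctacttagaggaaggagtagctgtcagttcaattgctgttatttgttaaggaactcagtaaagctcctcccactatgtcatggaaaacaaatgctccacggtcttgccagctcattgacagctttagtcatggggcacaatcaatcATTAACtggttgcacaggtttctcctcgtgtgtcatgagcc
Ugt1a6a: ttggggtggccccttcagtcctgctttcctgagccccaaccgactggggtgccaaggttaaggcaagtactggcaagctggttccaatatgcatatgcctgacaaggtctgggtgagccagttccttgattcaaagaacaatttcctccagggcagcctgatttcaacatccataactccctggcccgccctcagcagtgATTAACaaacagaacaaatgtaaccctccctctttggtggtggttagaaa
Ugt1a2: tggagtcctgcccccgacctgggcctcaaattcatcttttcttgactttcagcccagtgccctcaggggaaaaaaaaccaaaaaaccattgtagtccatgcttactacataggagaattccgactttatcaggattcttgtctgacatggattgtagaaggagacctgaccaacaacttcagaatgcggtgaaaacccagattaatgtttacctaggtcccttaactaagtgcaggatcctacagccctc
Ugt1a7c: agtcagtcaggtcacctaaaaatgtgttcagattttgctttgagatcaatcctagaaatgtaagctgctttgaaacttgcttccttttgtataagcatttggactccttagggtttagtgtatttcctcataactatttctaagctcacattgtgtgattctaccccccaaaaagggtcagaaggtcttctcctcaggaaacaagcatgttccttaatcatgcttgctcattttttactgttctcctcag
The half-site occurred in Ugt1a1, Ugt1a6a, Ugt1a9 and Ugt1a10, 4 of the 7 windows, against 6.4% of all mouse promoter windows in the table. In Ugt1a10 it occurred in both orientations, at 100 and 71 bases before the start. It did not occur in the window of Ugt1a2, the member with the largest fall. The windows of Ugt1a9 and Ugt1a10 were 82.8% identical to each other over 227 aligned bases. That of Ugt1a2 was 50.9% identical to the window of Ugt1a9 and 60.0% to that of Ugt1a10. The bearing of the windows on the changes was not tested.

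Further motifs were searched on both strands of the same windows. GCGTG, the core of the AhR response element, was found in Ugt1a5 alone (28.1% of all windows), and TGACNNNGC, the core of the antioxidant response element bound by NRF2, in 0 of 7 (10.2%). AGGTCA, a nuclear receptor half-site, was found in Ugt1a7c and Ugt1a9 (4604 of 32817 windows), and AGAACA, a steroid receptor half-site, in Ugt1a6a, Ugt1a7c and Ugt1a10 (16.1%). The direct repeat of the nuclear receptor half-site known as DR1 was in 0 of 7 (11 of 32817 windows), and TATAAA in 0 of 7 (12.4%). These are matches of letters in short windows and were not tested against binding.

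Genes around the locus in the pathway were read from the same fit. In 10 lists of 70 further genes, 59 were tested, of which 15 were lower and 14 higher, against 12.9% and 16.8% of all genes. Without wild-type-labelled replicate 3 the counts were 14 and 14. Of the 13 other UDP-glycosyltransferases 8 were tested, of which 5 were higher, 0 lower and 3 did not pass, with a median log2 difference of 0.76, against 16.8% of all genes called higher. At an unadjusted p under 0.05, edgeR gave 6 higher and 0 lower, and DESeq2 and limma-voom gave 5 and 0. Ugt2b38, a steroid- and drug-conjugating family member, measured 170.38, 181.58 and 120.53 CPM against 533.21, 679.29, 535.05 and 517.00 CPM (3.595-fold, log2 1.85, adjusted p = 0.00015). All knockout-labelled kidneys were above all others. Ugt2b5 rose 1.85-fold, and Ugt2b37 did not pass (adjusted p = 0.127, groups apart at 16.81 to 40.22 and 41.08 to 97.56 CPM). These 3 are close relatives, so the division of reads among them is uncertain. Ugt3a1 and Ugt3a2, of a family that uses other sugars than glucuronic acid, rose 1.72- and 1.67-fold. The fifth, Ugt8a, the enzyme of galactosylceramide synthesis, rose 1.58-fold. Their summed CPM ranged from 718.6 to 923.3 in wild-type-labelled and from 1624 to 1911 in knockout-labelled kidneys, so that it exceeded the Ugt1a sum in both groups. The summed proximal tubule markers given above also ranged higher under the knockout label, with 4 of 10 called higher and 1 lower. Loop and distal tubule markers ranged from 5827 to 6349 against 4176 to 4725 CPM. Of these 4, 1 was called lower in edgeR (Slc12a3) and 3 in DESeq2, while Calb1 went the other way without passing (log2 0.32). In the collecting duct list, 5 of 5 markers were lower. Leaving out 1 library lowered that count to 2 (wild-type-labelled 1, knockout-labelled 1, 2 or 3) or to 3 (wild-type-labelled 2, knockout-labelled 4). It was 4 without wild-type-labelled replicate 3, in limma-voom, in limma-trend and with the deposited factors as offsets. Macrophage markers ranged from 20.9 to 48.8 against 45.9 to 58.6 CPM, but only Csf1r of the 4 was called higher (log2 0.85). Cd68 (0.18), Adgre1 (-0.64) and C1qa (-0.28) did not pass, the last 2 in the other direction. Endothelial markers ranged from 195.4 to 243.1 against 149.4 to 186.0 CPM, with 2 of 4 called lower. Beside these marker counts, 12.9% of all tested genes were called lower and 16.8% higher. The part of cell makeup in the Ugt values was not tested.

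**Figure D4:**
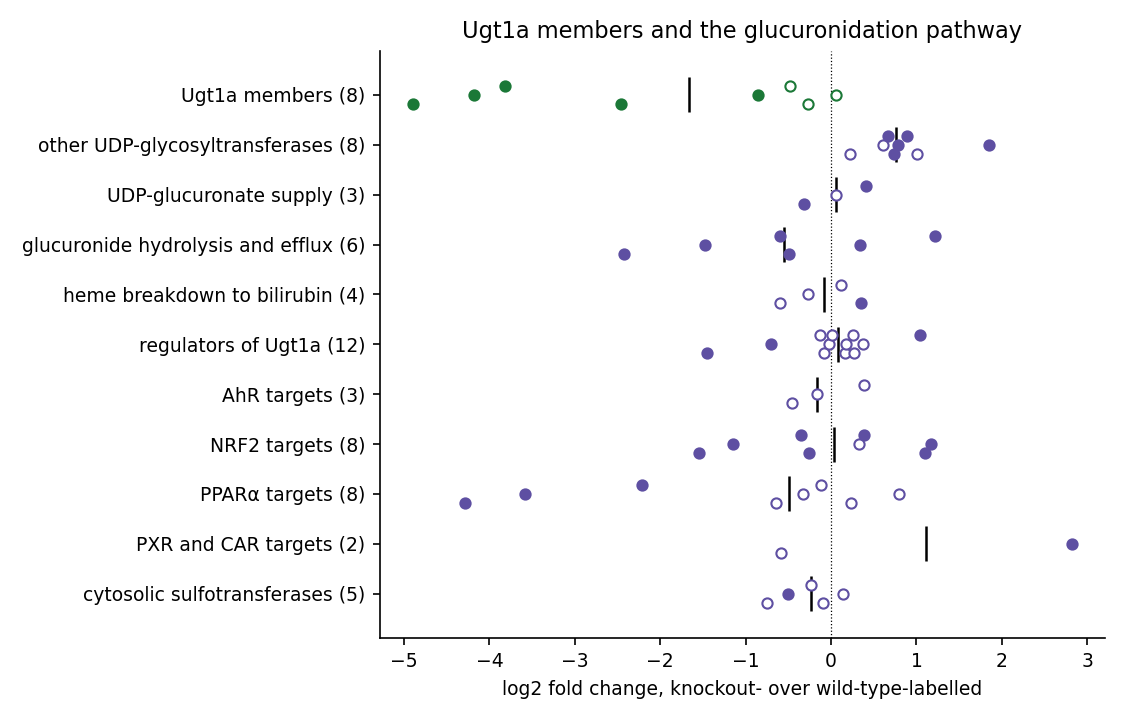
Log2 difference of knockout-labelled over wild-type-labelled kidneys (horizontal axis) for each tested gene of the Ugt1a locus and of the pathway lists (rows); filled points passed the test and short lines mark medians. The Ugt1a members spread from -4.90 to 0.06, and 5 of 8 other UDP-glycosyltransferases are filled on the right.

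Genes of the sugar donor's supply showed small differences, 1 lower and 1 higher of 3, against 12.9% and 16.8% of all genes. Ugdh, which makes UDP-glucuronate, was lower by 1.25-fold (log2 -0.32, adjusted p = 0.0324), a call lost when any of 5 single libraries was left out (wild-type-labelled replicates 1 and 2 and knockout-labelled replicates 1, 2 and 3, with adjusted p from 0.0551 to 0.1163). Slc35d1, which carries it into the endoplasmic reticulum, was 1.33-fold higher (adjusted p = 0.0009), and Ugp2, an earlier step, did not pass (0.05).

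All 6 genes of glucuronide hydrolysis and efflux were called, against 29.7% of all genes. Of the 6, 4 were lower and 2 higher, although 2 of the 6 calls depend on single libraries. Abcc3, an efflux pump for glucuronides of the basolateral membrane, measured 17.86, 12.91 and 23.08 CPM against 4.71, 2.01, 3.26 and 3.31 CPM, a 5.39-fold fall (adjusted p = 0.00094). Abcc4, an organic anion pump of the apical membrane in the proximal tubule, measured 138.43, 171.80 and 154.02 CPM against 63.98, 55.32, 53.49 and 49.01 CPM, a 2.79-fold fall (adjusted p = 4.455e-05). Neither pump's groups overlapped. Abcc1 and Abcc2, related pumps, fell 1.52- and 1.41-fold, the latter not passing without wild-type-labelled replicate 2 (adjusted p = 0.0525). Gusb, the lysosomal enzyme that removes glucuronic acid, rose 2.33-fold, from 17.13 to 17.39 CPM in one group to 32.06 to 44.36 CPM in the other (adjusted p = 0.00012). Abcg2, another apical pump, rose 1.27-fold. It did not pass when replicate 1 or 3 of the wild-type label or replicate 1 or 2 of the knockout label was left out, or with the deposited factors as offsets (adjusted p from 0.0516 to 0.0897). Of the enzymes that make bilirubin from heme, Blvra was called (1.28-fold higher, adjusted p = 0.0149, and 0.0695 without wild-type-labelled replicate 1), and Hmox1 (log2 -0.59), Hmox2 (0.11) and Blvrb (-0.27) did not pass.

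Among 12 regulators of the locus, 2 were lower, against 12.9% of all genes, and 9 did not pass. Nfe2l2, which encodes NRF2, fell 1.63-fold (adjusted p = 0.00018). Nr1i3, which encodes CAR, was low, with means of 1.28 and 0.465 CPM and overlapping groups. It was 2.74-fold lower (adjusted p = 0.0215), a call lost in 5 alternatives, 4 of which left out 1 library (replicates 2 and 3 of either label, with adjusted p from 0.05 to 0.0792). Ahr (log2 0.01), Ppara (0.26) and Nr1i2, which encodes PXR (0.27), did not pass.

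Known targets of these regulators did not move as 1 group. For the counts below, 12.9% of all tested genes were called lower and 16.8% higher. Of 8 PPARα targets, 3 fell and 0 rose in edgeR, with 4 lower and 1 higher at an unadjusted p under 0.05, 4 and 0 in DESeq2 and 3 and 0 in limma-voom. The count of higher genes was 1 without wild-type-labelled replicate 2, without knockout-labelled replicate 1, with 1 surrogate variable and in limma-trend. Cyp4a14, a fatty acid hydroxylase, measured 1111.61, 1624.81 and 1153.72 CPM against 71.16, 28.31, 44.83 and 121.97 CPM (19.5-fold, adjusted p = 0.0020). Cyp4a10, of the same family, fell 4.65-fold. The fatty acid oxidation genes Ehhadh (log2 -0.33) and Cpt1a (0.23) did not pass. Of the NRF2 targets, 4 of 8 were lower and 3 higher. Without wild-type-labelled replicate 2 these counts were 3 and 1, without knockout-labelled replicate 4 they were 4 and 1, and with any of the other 5 libraries left out they were 3 or 4 lower and 2 higher. Nqo1, a quinone reductase, fell 2.91-fold, Srxn1, a peroxiredoxin repair enzyme, fell 2.21-fold and Txnrd1 fell 1.28-fold. Me1, an NADPH-producing enzyme, rose 2.14-fold.

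Of 5 AhR targets 3 were tested and 0 passed in edgeR (0 also at an unadjusted p under 0.05, in DESeq2 and in limma-voom). Of all genes, 29.7% were called in either direction. The most abundant were Cyp1b1 (log2 -0.17) and Tiparp (0.38). Of 4 PXR and CAR targets, Cyp2b10 rose 7.05-fold from 0.114 to 0.807 CPM in the mean, and Cyp3a13 did not pass. The sulfotransferases compete with glucuronosyltransferases for phenols. Of 5 tested, Sult1c2 fell 1.41-fold (adjusted p = 0.0133), and Sult1d1, the most abundant, had a log2 difference of -0.10 and did not pass.

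Genes whose pattern over the 7 libraries was closest to that of the locus sum were Apoh, Shd, Gpt2, Nktr and Zbtb46, by Euclidean distance of centred log2 CPM (0.14 to 0.22, Pearson r 0.974 to 0.989 over 7 libraries). The likeness is a description. It follows in part from a like difference between the same 2 groups. Apoh, an apolipoprotein gene, measured 8.99, 11.85 and 9.75 CPM against 6.18, 6.96, 6.20 and 6.15 CPM, and Gpt2, a mitochondrial transaminase, fell 1.66-fold.

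**Figure D5:**
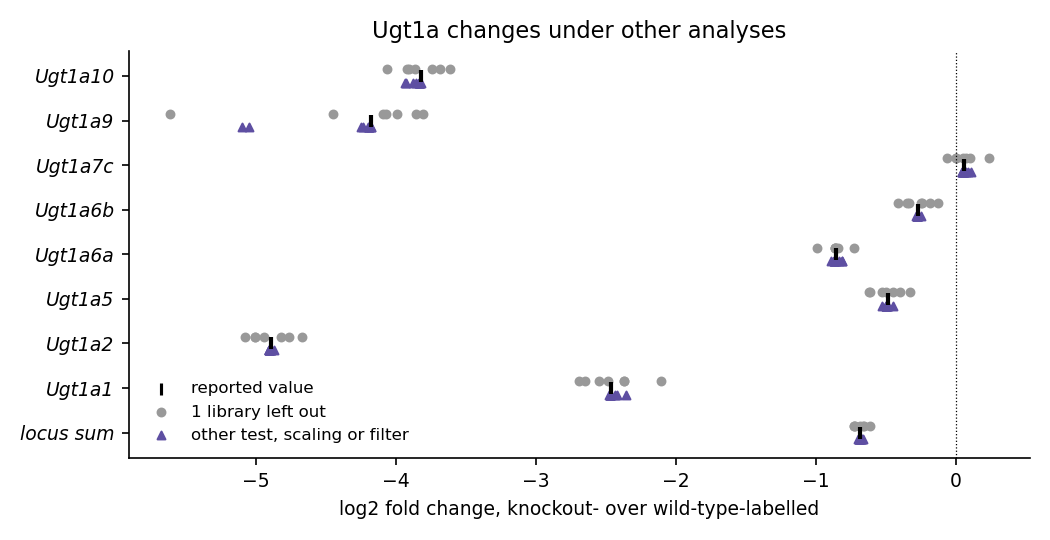
Log2 difference of each member and of the locus sum (horizontal axis) in the analysis given here and under other tests, scalings, filters and each library left out, with the rows and the sum kept as they are. Ugt1a2 and Ugt1a10 keep to the left of all others but Ugt1a9, and Ugt1a7c lies between -0.06 and 0.24.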

How the data were processed

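Bulk RNA-seq counts of 7 whole kidneys were used. The authors deposited estimated counts per gene as whole numbers, and a second table of normalized signal in which those counts are multiplied by factors that differ between genes and libraries, per the file headers and values. DRAGEN, DESeq2 and the mm10 assembly appear in the submitters' processing notes; versions, annotation release and strand setting are not given in the sources used here.

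Groups came from the genotype labels. Genes were filtered (filterByExpr), scaled by TMM and compared over the whole table with edgeR 4.0.16 (robust quasi-likelihood test, no covariate, Benjamini-Hochberg over 17964 genes, called at adjusted p under 0.05; script tested on simulated data). Each SE is the log2 difference over the square root of F, and 95% intervals use edgeR's degrees of freedom. The locus sum was fitted as 1 row in place of its members. Depth was similar in all libraries, so precision is set by the spread between them (biological coefficient of variation 15.2%). Every pair of libraries differed by more than sampling noise (median chi-square 0.809 to 3.42, against 0.455 from sampling alone). Exon positions came from GENCODE M21, promoters from RefSeq GRCm38.p6.

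The members, lists, tests and markers were chosen with earlier results of these data known. Named genes are all members, Cdh11, genes beside the locus, the 5 genes most like the locus sum, and from each list up to 4 called genes with the lowest adjusted p, or the 2 most abundant where none was called. Further list members were named after their values were seen, among them Ugt8a, Abcc2, Abcg2 and the regulators, oxidation and heme genes that did not pass. Alternatives were DESeq2 1.42.0, limma-voom and limma-trend (3.58.1, the latter on the deposited normalized signal plus 1), 2 other scalings, 2 filters, no robust estimation, 1 surrogate variable (sva 3.50.0), the deposited factors as offsets and each library left out. Joined Ugt1a7c and Ugt1a6a rows, sums without both and a sum with Ugt1a8 were added after seeing the data. Some genes that this rule would name are not reported here.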

Additional observations from a re-analysis of the deposited data

Results flagged for a closer look

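Within groups of 4 knockout-labelled libraries, 1 library lay far from the other 3 for 6 of 53 values looked at, where chance alone gives about 1 in 20; none of the 6 is a Ugt1a member. Ugt2b38 was at 679.3 CPM in knockout-labelled replicate 2, above 517.0 to 535.0 CPM in the others. Inpp5d, beside the locus, was lowest in the same library, at 6.88 CPM against 8.78 to 9.07 CPM. In replicate 4, Ugt2b5 was at 7.78 CPM, below 11.03 to 11.53 CPM, and Tiparp at 38.2 CPM, above 22.7 to 23.96 CPM. Cyp1b1 was at 29.1 CPM in replicate 1, below 36.0 to 36.1 CPM. Cyp2b10 was at 1.06 CPM in replicate 3, above 0.697 to 0.741 CPM.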

How the results depend on the processing

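Under 17 alternatives the number of members called lower ranged from 5 to 7 and none was called higher. The log2 difference of the locus sum stayed between -0.73 and -0.61 with each library left out. No result changed direction while called. The genes beside the locus numbered 3 called, but 5 under DESeq2, limma-voom with sample quality weights and 1 surrogate variable; the cause was not tested. Over all genes, 1581 to 2761 were lower and 2137 to 3288 higher. Ugt1a5 passed under DESeq2 (adjusted p = 0.0221), limma-voom (0.0312) and without either of 2 libraries. No paired analysis was possible because the labels pair no libraries across the groups: replicate numbers only follow the order of deposit. Libraries were of like depth; the log2 difference of Ugt1a9, at 0 to 34 counts in knockout-labelled libraries, ran from -5.62 to -3.81 as single libraries were left out.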

Other observations

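The genes closest in pattern to Ugt1a2 and Ugt1a10 were looked up after their values were seen, by the same distance over 7 libraries and without a test. For Ugt1a2 they were Greb1, Gm10639, Cyp4a14, Marc1 and Gsta1. Greb1, an estrogen-responsive gene, measured 17.07, 22.74 and 27.71 CPM in wild-type-labelled and 0.40, 0.80, 0.43 and 0.44 CPM in knockout-labelled kidneys (44.0-fold lower). Gsta1, a glutathione transferase, measured 14.02, 13.26 and 13.29 CPM against 1.55, 1.31, 1.25 and 0.85 CPM (10.9-fold lower). For Ugt1a10 they included Cyp4a14, Marc1, Cbr3 and Gsta1, of which Cbr3, a carbonyl reductase, was 9.95-fold lower. Only genes averaging 1 CPM or more were compared. Greb1, Marc1 and Cbr3 reached that average only through the wild-type-labelled libraries (knockout-labelled means 0.516, 0.400 and 0.836 CPM). These likenesses, too, follow in part from a like difference between the same groups.

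Within the 4 knockout-labelled libraries, Ugt1a2 and Ugt1a10 did not share an order. Ugt1a2 was highest in replicate 1 (6.43 CPM) and Ugt1a10 in replicate 4 (7.96 CPM).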
